A study of Mus musculus with 8 samples.

Results

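E proteins, their ID protein inhibitors and the partners of LMO2 were followed here in mouse germinal centre B cells. The 9 genes are the E protein genes Tcf3, Tcf4 and Tcf12, the ID genes Id1, Id2 and Id3, and the LMO2 complex genes Lmo2, Lyl1 and Ldb1. They were chosen by name, and every probe set whose single symbol in the platform annotation is one of these names was taken, which gave 22 of the 45037 probe sets of the table. The gene identifiers behind the symbols were those of E2A, E2-2 and HEB for Tcf3, Tcf4 and Tcf12, and not those of the similarly named TCF/LEF genes of the Wnt pathway.

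The arrays hold RNA of germinal centre B cells (B220+, CD38-, CD95+) from lymph nodes of C57BL/6 mice, taken 12 days after immunization under the skin with the hapten carrier NP-KLH in alum. All samples share this strain, antigen and day. Staining for CXCR4 and CD83 separated the zones in the sort. Each zone has 4 arrays, and the labels call them biological replicates without giving age, sex or the number of mice pooled in a sample. No unimmunized or naive B cell sample was analysed here. The gate wording in the labels gives the light zone cells high CXCR4 and low CD83, the reverse of the usual definition. The arrays titled light zone had the higher Cd83 mRNA (log2 difference, dark minus light, -2.32) and the lower Cxcr4 mRNA (0.96), so the groups below follow the titles.

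E proteins are basic helix-loop-helix transcription factors that bind DNA as dimers at E-box motifs and drive B cell identity and antibody gene recombination. ID proteins carry the helix-loop-helix without the basic DNA-binding part, so they pair with E proteins and keep them off DNA. LMO2 is a LIM-domain adaptor that does not bind DNA itself. It joins the dimer of an E protein and a partner such as LYL1 or TAL1 to the scaffold LDB1. LMO2 is also used in pathology as a germinal centre B cell marker, and TCF3 and ID3 are mutated in Burkitt lymphoma.

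Tcf3 was the 1 gene of the set that was higher in the dark zone, whereas Id2, Id3, Lmo2, Lyl1 and Ldb1 were all higher in the light zone. Tcf4 and Tcf12 did not pass the test with their brightest probe sets, and Id1 was too dim to test. A gene was represented by its brightest probe set and was tested when the mean of that probe set reached the median of all probe sets, an intensity of 27.8, in a limma fit over 10547 genes with Benjamini-Hochberg adjusted p under 0.05. Thus 6 of the 8 tested genes were called, 5 of them toward the light zone and 1 toward the dark zone. Over all genes tested, 43.9% were called, 24.8% as higher in the light zone and 19.1% as higher in the dark zone. The arrays of the zones did not overlap in 6 of the 8 genes, against 41.3% of all genes. The called difference was 1.5-fold or more in 3 genes (Lmo2, Id2 and Tcf3), against 10.1% of all genes. With zone differences this common, the counts alone say little about these genes, and the sizes below carry the description.

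**Figure D1:**
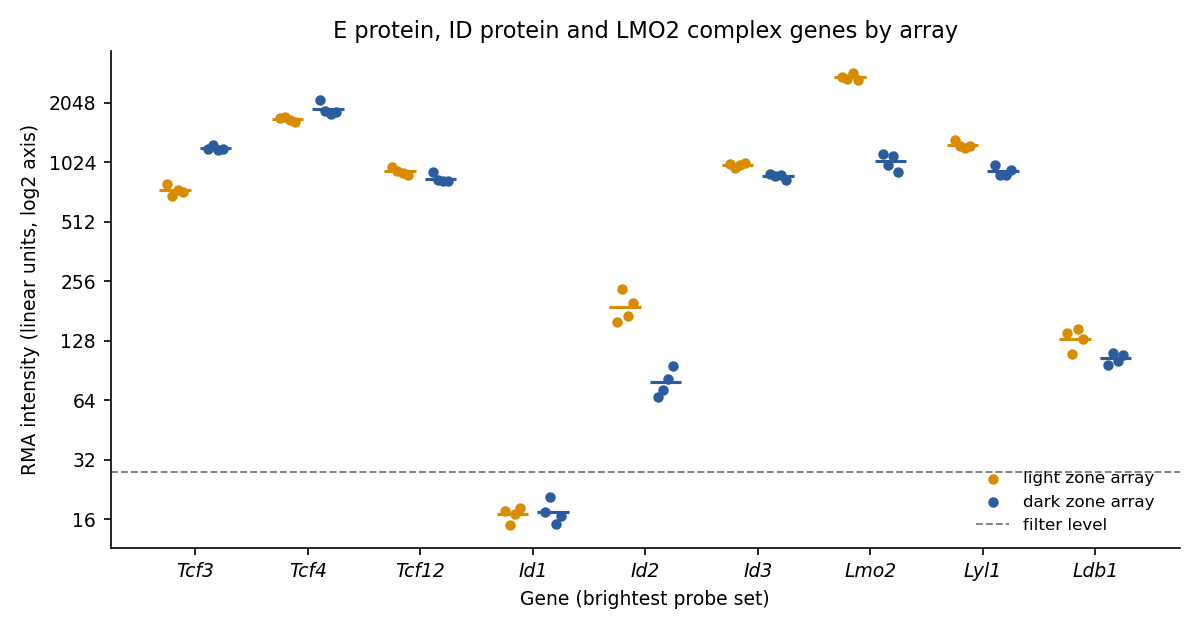
RMA intensity (linear units on a log2 axis) of the brightest probe set of each of the 9 genes in every array, with light zone arrays in orange, dark zone arrays in blue, a bar at each mean and the filter level dashed. Tcf3 lies higher in all 4 dark zone arrays, as does Tcf4, which was not called. Id2, Id3, Lmo2 and Lyl1 lie higher in all 4 light zone arrays. The zones overlap for Tcf12, Id1 and Ldb1, and Id1 is below the filter level in all 8 arrays.

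Tcf3 encodes E12 and E47, the E proteins most studied in B cells. Its brightest probe set, 1426297_at, read 797, 688, 741 and 727 in the 4 light zone arrays and 1201, 1247, 1189 and 1196 in the 4 dark zone arrays. Every dark zone array was above every light zone array. The mean intensity was 738 ± 45.2 (SD, n = 4) in the light zone and 1208 ± 26.4 (SD, n = 4) in the dark zone, a log2 difference of 0.71 (SE 0.06, limma adjusted p = 2.1e-06), or 1.64-fold. This difference was larger than those of 93.2% of all genes tested. The pair of dimmer Tcf3 probe sets moved the same way. Probe set 1427764_a_at rose from 70.8 ± 11.5 to 147 ± 19.2 (SD, n = 4 each) and probe set 1452542_x_at from 49.1 ± 1.35 to 88.4 ± 8.05 (SD, n = 4 each). On the log2 scale these were differences of 1.06 (SE 0.12) and 0.85 (SE 0.07), with limma adjusted p values of 2.0e-05 and 1.7e-06 in a fit over all 34945 probe sets with 1 symbol. The suffix of 1452542_x_at marks a probe set that can also detect related transcripts. All 3 Tcf3 probe sets were therefore higher in the dark zone, with no overlap between the zones in any of them.

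Tcf4 encodes E2-2, the E protein best known for plasmacytoid dendritic cells and also expressed in B cells. Its 6 probe sets did not move together. The brightest, 1416723_at, read 1727, 1733, 1670.4 and 1631 in the light zone and 2124, 1866, 1797 and 1837 in the dark zone. The zones did not overlap, yet the log2 difference of 0.17 (SE 0.07) missed the threshold (limma adjusted p = 0.054), with a 95% interval of 0.03 to 0.31. It passed without dark zone replicate 3 (0.20, limma adjusted p = 0.046). Probe set 1416724_x_at went the other way, with 1866, 1837, 1753 and 1593 in the light zone and 1565, 1528, 1552 and 1496 in the dark zone (-0.20, SE 0.07, limma adjusted p = 0.047). Probe set 1424089_a_at was also lower in the dark zone, at 784 ± 55.4 against 666 ± 17.9 (SD, n = 4 each; -0.23, SE 0.07, limma adjusted p = 0.020). Neither call was firm. That of 1416724_x_at was lost without any array other than light zone replicate 4 (limma adjusted p = 0.065 to 0.12), and that of 1424089_a_at was lost without dark zone replicate 4 (0.054) or light zone replicate 2 (0.065).

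The other Tcf4 probe sets were not called. Probe set 1434148_at gave -0.10 (SE 0.08) and 1434149_at gave 0.24 (SE 0.11), and the zones overlapped in both. Probe set 1434149_at passed at 0.36 without light zone replicate 2 (limma adjusted p = 0.0062), which read 674 against 448 to 519 in the rest of its zone. The sixth, 1416725_at, read between 13.8 and 17.5 in all arrays, below the filter level. With the 6 probe sets averaged, the difference of Tcf4 was -0.02 (limma adjusted p = 0.76), so the sign of this gene depends on the probe set. Within each array, the log2 ratio of 1416723_at over 1416724_x_at lay between -0.11 and 0.03 in the light zone and between 0.21 and 0.44 in the dark zone. The second probe set of this pair was chosen because it was called, so the ratio only restates the opposite differences given above. Its suffix marks a probe set that can also detect related transcripts. Which Tcf4 transcripts each probe set detects was not analysed here.

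Tcf12 encodes HEB, the remaining E protein. Its brightest probe set, 1427670_a_at, read 968, 921, 906 and 888 in the light zone and 915, 830.0, 828 and 820.4 in the dark zone. The zones overlapped through dark zone replicate 1, and the log2 difference of -0.12 (SE 0.06, 95% interval -0.25 to 0.01, limma adjusted p = 0.13) did not pass. Of its 4 dimmer probe sets, 1 was called. Probe set 1439209_at read 221, 237, 173 and 222 in the light zone and 154, 159, 135 and 143 in the dark zone, without overlap (-0.52, SE 0.09, limma adjusted p = 0.0010). The remaining differences were 0.18 for 1421908_a_at, 0.01 for 1446294_at and -0.16 for 1439619_at, and the zones overlapped in each. Over the 3 E protein genes, 14 probe sets gave 3 calls toward the dark zone, all of Tcf3, and 3 toward the light zone, of Tcf4 and Tcf12. Among all probe sets with 1 symbol, 24.2% were called, 12.1% in each direction.

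Among the inhibitors, Id2 had the largest difference. The ID2 protein restrains E proteins in natural killer cells, innate lymphoid cells and dendritic cells, where it is needed for their development. Its brightest probe set, 1435176_a_at, read 159, 235, 171 and 198 in the light zone and 66.2, 72.4, 82.3 and 95.3 in the dark zone. The lowest light zone array was above the highest dark zone array. The log2 difference was -1.27 (SE 0.13, limma adjusted p = 1.1e-05), so that the dark zone level was 41.5% of the light zone level, and 98.4% of all genes tested had a smaller difference. Probe set 1422537_a_at gave 144 ± 9.21 against 74.7 ± 6.06 (SD, n = 4 each; -0.95, SE 0.08, limma adjusted p = 9.1e-07). The third Id2 probe set, 1453596_at, read between 14.9 and 22.1 over all arrays, under the filter level (-0.14, SE 0.09, limma adjusted p = 0.35). In bulk RNA of this kind, fewer cells that express a gene and less RNA per cell cannot be told apart.

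Id3, the ID gene recurrently mutated in Burkitt lymphoma, moved the same way but little. Its single probe set, 1416630_at, read 1001, 958, 995 and 1021 in the light zone and 896, 874, 884 and 838 in the dark zone. The zones did not overlap, and the log2 difference was -0.19 (SE 0.06, limma adjusted p = 0.016), or 1.14-fold. A smaller difference was seen in 53.4% of all genes tested, so the size of this shift is near the middle of the array. In the fit over all probe sets the adjusted p of Id3 was 0.033, and there it missed the threshold when 1 of 6 arrays was left out (light zone replicate 1, 3 or 4, with adjusted p of 0.069 to 0.081, and dark zone replicate 2, 3 or 4, with 0.053 to 0.083 in limma). In the fit over genes it kept its call without each array in turn (limma adjusted p = 0.019 to 0.044).

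Id1, which is known as a target of BMP signalling, was not measurable at this level. Its probe set, 1425895_a_at, read between 14.9 and 20.8 in the 8 arrays, below the filter level (0.04, SE 0.10, limma adjusted p = 0.81 over all probe sets). No statement on a zone difference of Id1 can be drawn from a probe set this dim. Over the ID genes, 3 of 5 probe sets were called, all higher in the light zone, and the 2 not called were below the filter level.

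In the LMO2 complex all 3 genes were higher in the light zone, each by its only probe set, against 24.8% of all genes tested. Lmo2, the adaptor, read 2763, 2704, 2889 and 2659 in the light zone and 1134, 994, 1109 and 916 in the dark zone (1454086_a_at). The gap between the zones was far larger than the spread within them. The log2 difference was -1.41 (SE 0.07, limma adjusted p = 3.8e-08), so that the dark zone level was 37.6% of the light zone level, and it was larger than those of 98.7% of all genes tested. Lyl1, the helix-loop-helix partner that dimerizes with E proteins in this complex, read 1330.4, 1238, 1209 and 1232 in the light zone and 989, 887, 885 and 935 in the dark zone. Again no arrays overlapped (-0.44, SE 0.06, limma adjusted p = 1.3e-04, 1.36-fold). Ldb1, the scaffold that lets such complexes join to each other, read 139, 109, 147 and 130 in the light zone and 96.2, 111, 101 and 108 in the dark zone. Its zones overlapped through light zone replicate 2 (-0.33, SE 0.09, limma adjusted p = 0.012). The same value missed the threshold in the exact permutation test over the 70 arrangements of the arrays (two-sided p = 0.057). In the fit over all probe sets, the Ldb1 call was lost without dark zone replicate 1 (limma adjusted p = 0.052) or light zone replicate 1 (0.052) or 3 (0.058).

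**Figure D2:**
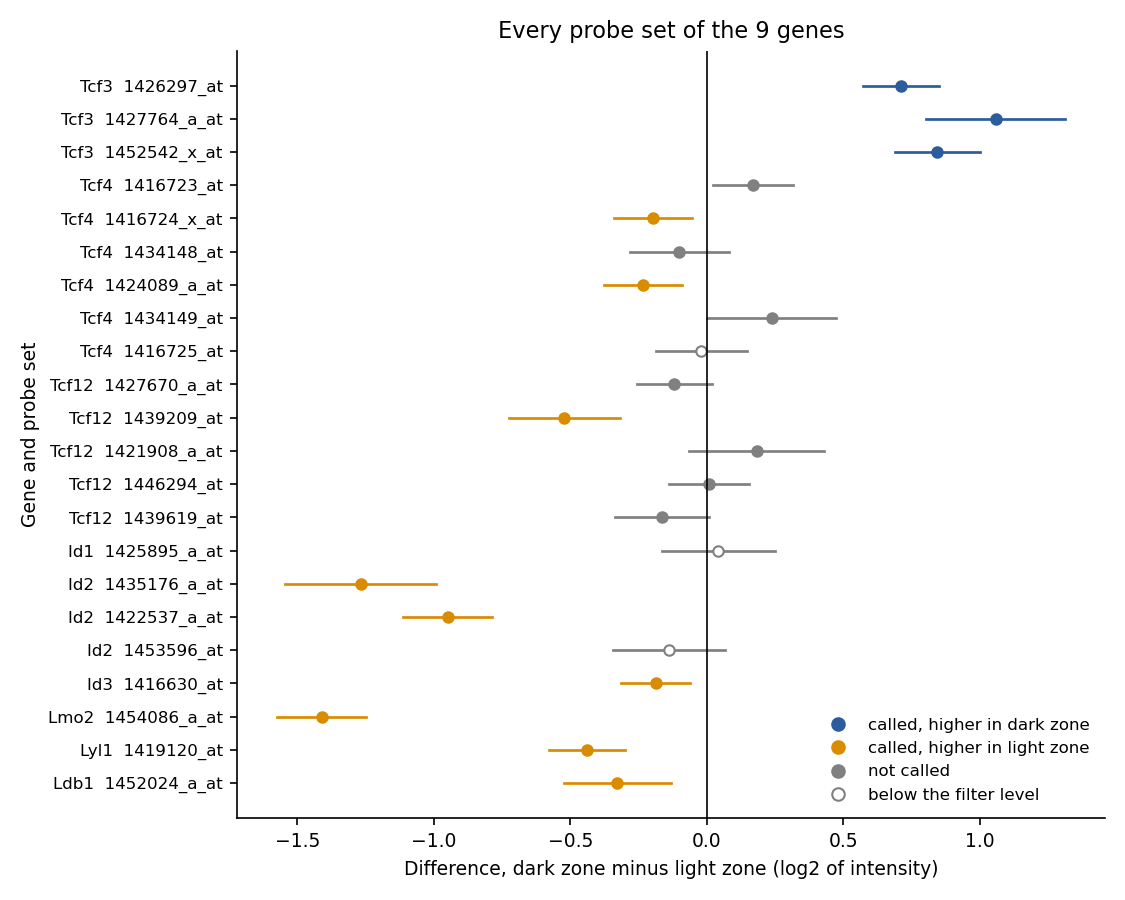
Log2 difference (dark zone minus light zone) of all 22 probe sets in the fit over probe sets, with 95% intervals, coloured by call and open where the probe set mean is below the filter level. The 3 Tcf3 probe sets lie on the dark zone side, those of Id2, Id3, Lmo2, Lyl1 and Ldb1 on the light zone side, and those of Tcf4 and Tcf12 on both sides of 0.

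Over all 22 probe sets, 12 were called, 3 toward the dark zone and 9 toward the light zone. The background of this fit was 24.2% of probe sets called, 12.1% in each direction, and 5.95% called with a change of 1.5-fold or more. The arrays did not overlap in 12 of the 22, against 25.9% of all probe sets with 1 symbol. Of the 22, 19 were above the filter level, and none of the 3 dim ones (of Tcf4, Id1 and Id2) was called. This background is not matched for brightness, since the fit had no filter and so includes every dim probe set. Probe sets of 1 gene also repeat each other. With the filter, 43.9% of genes were called in the gene fit, so these counts alone say little about the 9 genes.

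Ratios of Tcf3 over Id2 and over Id3 were also taken within each array, where differences in scale between arrays cancel. The changes of these ratios between zones restate the differences given above and add no support to them. A ratio alone does not show which of its genes moved. The log2 ratio of Tcf3 over Id2 lay between 1.55 and 2.33 in the light zone arrays and between 3.65 and 4.18 in the dark zone arrays, a rise of 1.98. The ratio of Tcf3 over Id3 lay between -0.49 and -0.33 in the light zone and between 0.42 and 0.51 in the dark zone, a rise of 0.90. Ratios of different probe sets do not give the ratio of transcripts, and only their change between zones can be read. Within the LMO2 complex the change was unequal too, since the log2 ratio of Lmo2 over Lyl1 fell by 0.97. It lay between 1.05 and 1.26 in the light zone and between -0.03 and 0.33 in the dark zone.

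**Figure D3:**
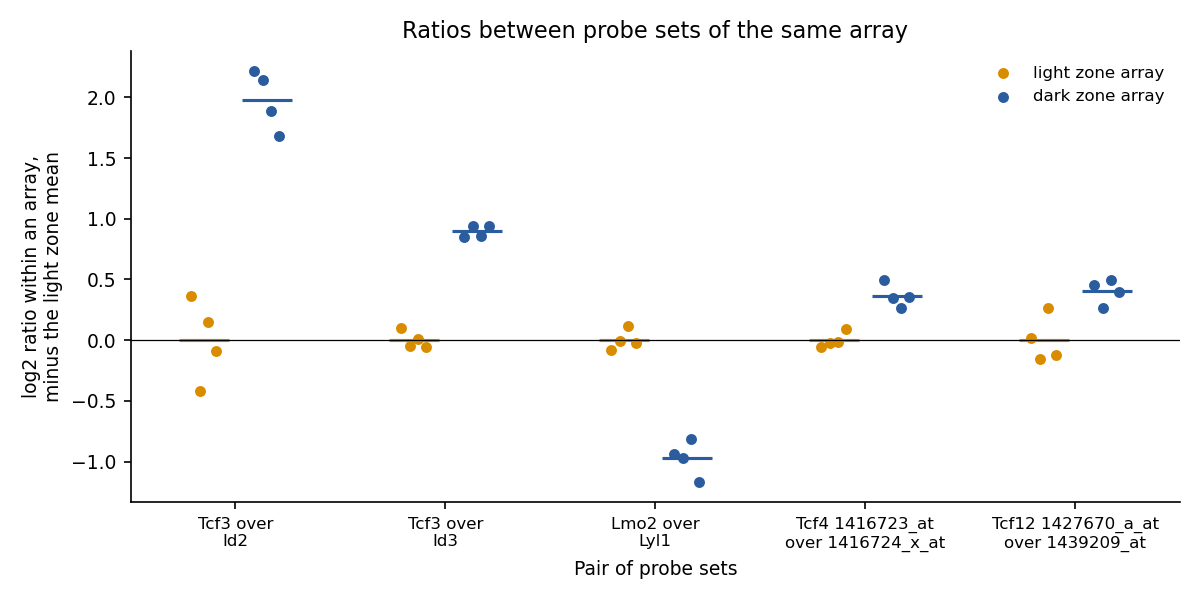
Log2 ratio between pairs of probe sets in the same array, with the light zone mean of each pair set to 0, light zone arrays in orange, dark zone arrays in blue and a bar at each mean. Tcf3 rises over Id2 by 1.98 and over Id3 by 0.90, and Lmo2 falls against Lyl1 by 0.97, each without overlap. The Tcf4 pair differs by 0.37 without overlap, and the Tcf12 pair by 0.40 with the ranges of the zones touching. In both of these pairs the second probe set was chosen because it was called. Every change shown restates the differences of the probe sets of its pair.

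The promoter DNA of these genes shows where E-boxes, the letters CANNTG that E protein dimers recognise, lie near their starts. The windows below cover the 250 bases before the annotated start, from the RefSeq annotation of GRCm38.p6, in the direction of the gene. They belong to Tcf3, to Id2 and to Lyl1, which had the largest differences of their roles among the genes matched to a window, and capitals mark each CANNTG. Tcf3 lies at chr10:80433636-80433885 on the minus strand, Id2 at chr12:25096093-25096342 on the minus strand, and Lyl1 at chr8:84701207-84701456 on the plus strand.
Tcf3: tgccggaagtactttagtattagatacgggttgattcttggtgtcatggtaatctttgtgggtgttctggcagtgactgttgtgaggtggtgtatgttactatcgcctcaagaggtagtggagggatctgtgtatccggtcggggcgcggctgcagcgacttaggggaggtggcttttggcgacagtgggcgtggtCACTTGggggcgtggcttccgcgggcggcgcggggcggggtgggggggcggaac
Id2: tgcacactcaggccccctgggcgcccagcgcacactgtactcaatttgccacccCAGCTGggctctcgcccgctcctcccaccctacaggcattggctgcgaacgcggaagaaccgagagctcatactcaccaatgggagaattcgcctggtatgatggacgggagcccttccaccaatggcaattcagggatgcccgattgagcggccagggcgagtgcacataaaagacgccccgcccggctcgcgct
Lyl1: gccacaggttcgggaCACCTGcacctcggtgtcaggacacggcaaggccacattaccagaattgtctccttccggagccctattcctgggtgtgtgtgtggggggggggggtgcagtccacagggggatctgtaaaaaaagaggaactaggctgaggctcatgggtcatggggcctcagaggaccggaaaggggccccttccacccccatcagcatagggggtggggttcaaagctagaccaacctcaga
The Tcf3 window holds CACTTG, which begins 54 bases before the start. The Id2 window holds CAGCTG at 196 bases, and the Lyl1 window holds CACCTG at 235 bases. CANNTG reads the same on both strands as a pattern, and 66.2% of all 32851 promoter windows of this length hold at least 1. CAGCTG, which is also a CANNTG, is in 13.0% of them, and CAGGTG or its reverse complement CACCTG in 17.2%. In all, 8 genes were looked up, without Tcf4, and 6 of them were matched to 10 windows, of which 6 hold a CANNTG. The window of Id3 holds none. Such matches describe the letters only, and no binding was measured in these samples.

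Other genes of these pathways were followed in 5 lists. Their 64 genes gave 37 tested genes, with 9 calls toward the dark zone, 11 calls toward the light zone and a median difference of 0.00 against -0.01 over all genes tested. The shares of all genes called were 19.1% toward the dark zone and 24.8% toward the light zone, and the lists below, of 4 to 10 tested genes each, are to be read against them. The first list held relatives and further partners of the LMO2 complex, of which 8 of 16 were bright enough to test, with 3 calls toward the dark zone and 1 toward the light zone (median 0.11). The clearest was Lmo4, a LIM-only adaptor related to LMO2, which moved against Lmo2. It read 170.2, 180, 156 and 168 in the light zone and 600.4, 604, 506 and 434 in the dark zone, without overlap (1.66, SE 0.10, limma adjusted p = 1.1e-07). Ssbp3, a protein that stabilizes LDB1, rose by 0.22 (SE 0.06, limma adjusted p = 0.014), whereas its relative Ssbp4 was at -0.30 (SE 0.07, limma adjusted p = 0.0056). Runx1 was at 0.30 (SE 0.10, limma adjusted p = 0.028), a call lost on leaving out dark zone replicate 1 or 3 (limma adjusted p = 0.059 and 0.081) or light zone replicate 2 or 4 (0.080 and 0.058). Tal1, the relative of Lyl1 in blood stem cells and erythroid cells, was below the filter level, between 12.3 and 16.1 in all arrays. So were Gata1 and Ldb2.

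Coactivators through which E proteins act were divided. The 4 genes gave 2 calls toward the dark zone and 1 toward the light zone (median -0.0049). The acetyltransferase genes Kat2a and Kat2b, which encode GCN5 and PCAF, moved apart. Kat2a fell from 275 ± 19.8 in the light zone to 157 ± 10.4 in the dark zone (SD, n = 4 each; -0.81, SE 0.07, limma adjusted p = 3.1e-06), although a dimmer Kat2a probe set gave 0.08. Kat2b rose by 0.25 (SE 0.06, limma adjusted p = 0.0038). Crebbp, which encodes CBP, passed narrowly at 0.16 (SE 0.06, limma adjusted p = 0.048), and the call was lost on leaving out dark zone replicate 1, 2 or 4 (limma adjusted p = 0.054 to 0.12) or light zone replicate 2, 3 or 4 (0.080 to 0.12). Its relative Ep300 was at -0.17 (SE 0.08, limma adjusted p = 0.12).

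Of the B lineage genes known as E protein targets, the 9 tested gave 3 calls toward the dark zone and 2 toward the light zone, with a median of -0.01. Ccnd3, the D cyclin that germinal centre B cells need in the dark zone, rose from 601 ± 31.3 to 937 ± 26.2 (SD, n = 4 each; 0.64, SE 0.06, limma adjusted p = 4.3e-06). The coactivator gene Pou2af1 rose by 0.35 (SE 0.06, limma adjusted p = 4.4e-04) and Foxo1 by 0.26. Pax5, the factor that maintains B cell identity, was not called with its brightest probe set (0.22, SE 0.13, limma adjusted p = 0.18). Its dimmer probe set gave 0.58 (limma adjusted p = 9.0e-05 over all probe sets), and the average of the probe sets gave 0.40 (limma adjusted p = 0.0011). Ebf1, the B cell lineage factor that acts with E proteins, went the other way, from 1391 ± 112.6 in the light zone down to 937 ± 64.3 in the dark zone (SD, n = 4 each; -0.57, SE 0.08, limma adjusted p = 7.8e-05), and each of its 4 probe sets was higher in the light zone. The kinase gene Blk was at -0.44 (SE 0.07, limma adjusted p = 2.6e-04). Cd79a and Cd79b, the signalling chains of the B cell receptor, were at -0.06 and -0.01 and did not pass. Targets used in early B cell development, among them Rag1, Rag2, Dntt and Igll1, were below the filter level.

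Among other helix-loop-helix genes, 2 of 6 tested were called, both toward the light zone (median -0.14). Bhlhe40, a repressor of the helix-loop-helix family, read 142, 136, 133 and 124 in the light zone and 39.4, 33.1, 21.4 and 26.6 in the dark zone (-2.19, SE 0.15, limma adjusted p = 2.9e-07). The lowest 2 dark zone values lie below the filter level. Hes1, a Notch target, was at -0.27 (SE 0.08, limma adjusted p = 0.014). Id4, the ID gene outside the 9, was too dim to test.

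Inputs known to induce ID genes made up the last list, and 10 were tested, with 5 calls toward the light zone and 1 toward the dark zone (median -0.16), against 24.8% and 19.1% of all genes. The EGR factors, which antigen receptor signals induce and which act on Id3 in lymphocytes, were the largest, with Egr3 at -4.67, Egr2 at -2.67 and Egr1 at -1.96. A dim second probe set of Egr3 gave 0.01. Id3 itself differed by -0.19. Smad1, which transmits BMP signals to Id1 and Id2, was at -0.31 (SE 0.07, limma adjusted p = 0.0042). The receptor genes of TGF-beta moved apart, with Tgfbr1 at 1.14 (SE 0.06, limma adjusted p = 2.4e-08) and Tgfbr2 at -0.41 (SE 0.10, limma adjusted p = 0.0053). A dim second probe set of Tgfbr2 gave 0.08, and with both averaged the Tgfbr2 call was lost (-0.12, limma adjusted p = 0.13).

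**Figure D4:**
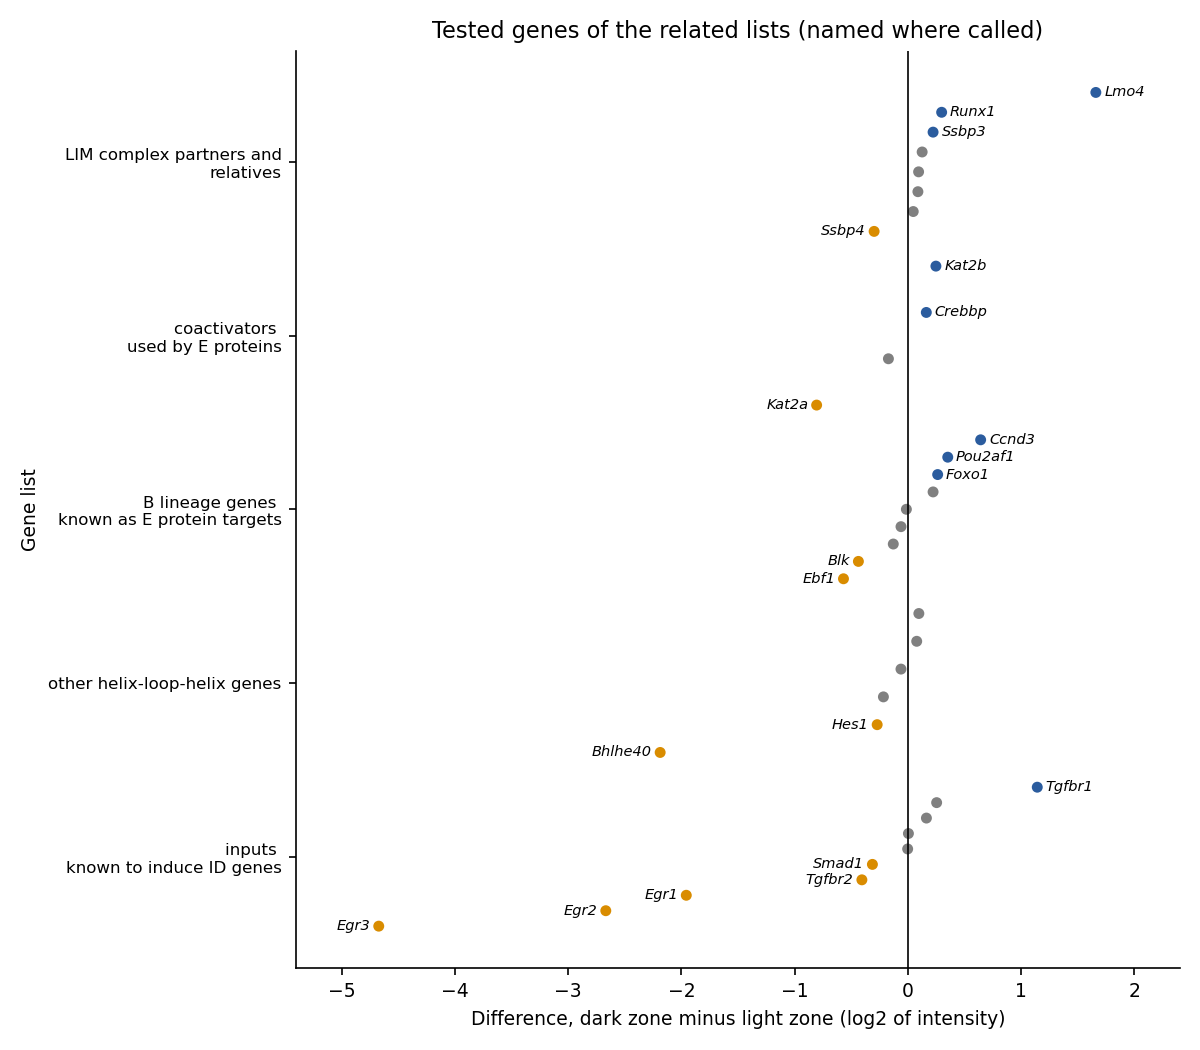
Log2 difference (dark zone minus light zone) of every tested gene of the 5 related lists, blue where called as higher in the dark zone, orange where called as higher in the light zone and grey otherwise, with names on the called genes. Lmo4 (1.66) and Tgfbr1 (1.14) lie farthest to the dark zone side, and Egr3 (-4.67), Egr2 (-2.67) and Bhlhe40 (-2.19) farthest to the light zone side.

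The genes whose log2 values over the 8 arrays were most like those of the leading gene of each role were named as a description. For Tcf3 these were Il17ra (Pearson r = 0.996), Slc43a2 (0.996) and Arhgap19 (0.996). For Id2 they were Pgap2 (0.995), Tmem120b (0.993) and Reep3 (0.993), and for Lmo2 they were Mettl1, Ly75 and Hapln1, each at 0.997. Of 10539 genes compared, 517, 293 and 674 had r over 0.95 with Tcf3, Id2 and Lmo2. The arrays form 2 zones, so such values mainly follow the zone gap.

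Several of these genes are also expressed in other cells, and the markers of those cells were therefore read in the same arrays. Germinal centre B cell markers were bright in both zones (8 of 8 above the filter level, 1 called toward the dark zone and 2 toward the light zone, sums of 32506 to 33524 and 31167 to 31859), with Ms4a1 at 10429 ± 146.2 and 10055 ± 215.7 and Bcl6 at 3112 ± 88.5 and 3445 ± 322.5 (SD, n = 4 each). Of natural killer and innate lymphoid markers, 1 of 5 was above the filter level and none was called, and their summed intensity was 80.3 to 92.9 in the light zone and 82.5 to 90.5 in the dark zone. Of T cell markers, 3 of 8 were above it and none was called, with sums of 208 to 220.4 and 205 to 218. Endothelial markers (2 of 5 above it, none called) summed to 130.3 to 148 and 127 to 149.9, and none of 4 erythroid markers was above it, with sums of 58.6 to 67.3 and 65.0 to 70.5. Of plasmacytoid dendritic cell markers, 4 of 5 were above it and Pacsin1 alone was called, at -1.11, which gave sums of 587 to 659 in the light zone and 377 to 411 in the dark zone, whereas Siglech read 41.1 ± 3.45 and 48.1 ± 5.64 (SD, n = 4 each).

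Markers of other B cell states and of myeloid cells did move with the zones. Of 5 plasma cell markers, Irf4 (-2.03) and Prdm1 (-1.37) were higher in the light zone. All dark zone values of Prdm1 (14.6 to 20.5) lie below the filter level. Jchain passed narrowly as higher in the dark zone (0.15, limma adjusted p = 0.049). The list summed to 10751 to 12069 in the light zone and 11722 to 12263 in the dark zone. The naive B cell marker Fcer2a, the only one of its list read here, was at -2.06, with 2222 to 2401 in the light zone and 527 to 575 in the dark zone. Of 12 myeloid markers, 4 were above the filter level, and the list summed to 294 to 347 in the light zone and 383.5 to 1122.5 in the dark zone. Lyz2 made most of that spread, with 128 to 824 in the dark zone arrays and the highest value in dark zone replicate 4, with Csf1r also called toward the dark zone (0.40) and Cd68 toward the light zone (-0.40), so that 2 of the 4 tested were called toward the dark zone and 1 toward the light zone. The other 8, among them Itgam, Cd14, C1qa and C1qb, were below the filter level. The part of these cells in the differences above was not tested. Without each array in turn, the difference lay between -1.46 and -1.35 for Lmo2, between -1.36 and -1.16 for Id2, between 0.68 and 0.75 for Tcf3 and between -0.47 and -0.41 for Lyl1, all called in limma. These ranges show only the weight of single arrays. Lyz2 was higher in every dark zone array (128 to 824) than in any light zone array (37.7 to 89.1), so leaving out 1 array does not remove its difference.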

How the data were processed

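The study's own sources name a 3' IVT Express labelling kit (per the labels' protocols) and RMA (per the submitters' processing notes, without a version). The deposited intensity values are on a linear scale although log2 values had been assumed in planning, so log2 was taken with no pseudocount. RMA quantile normalizes arrays, which hides changes in total RNA. Of 45037 probe sets, 34945 carry 1 symbol in the platform annotation, 932 several and 9160 none here.

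Zones, taken from the sample titles, were compared with limma 3.58.1 in R 4.3.3 (lmFit, eBayes, two-sided, Benjamini-Hochberg), with differences as dark minus light and moderated standard errors (SE). The gene fit used the brightest probe set of each of 18193 genes, of which 10547 passed the filter at the 50th percentile of probe set means. The probe set fit used all 34945 without a filter. The gene fit was tested on simulated data. It called 25.4% of 67 simulated log2 changes of 0.25, 88.1% of 67 of 0.5 and 100% of 66 of 1, among 10547 genes. In the real fit 43.9% of genes were called, and the adjusted p depends on how many genes change. The simulated shares therefore do not give the sensitivity of the real fit. A gene that was not called may still differ by a small amount. Median array intensity was 27.3 to 28.1, and arrays correlated at 0.995 to 0.997 within and 0.974 to 0.980 between zones. The p-values measure the spread between these samples, which may be technical, and the number of arrays limits the precision.

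The genes and lists were chosen with earlier results of these data known. Named are the 9 genes, the gate genes, up to 4 called genes with the largest differences in each list, list genes that moved against their list, and the 3 genes most correlated with the leading gene of each role. Other list genes, and the markers singled out, were chosen after their values were seen. Some genes of the lists are not reported here. Alternatives varied the filter, probe set choice, pseudocount, normalization, variance model, array weights, replicate block, test, call rule and arrays. Plots used matplotlib 3.10.9 under Python 3.11.15.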

Additional observations from a re-analysis of the deposited data

Results flagged for a closer look

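Within groups of 4 arrays, a value was marked when its gap to the nearest array took up more of the range of its group than Dixon's critical value for 4 samples. Of 44 groups (22 probe sets in each zone), 3 were marked, where chance marks about 1 in 20. Id2 probe set 1422537_a_at was high in light zone replicate 2, at 158 against 140.2 in the next array. Tcf12 probe set 1427670_a_at was high in dark zone replicate 1, at 915 against 830.0, and this array makes the zones overlap for that probe set. Tcf4 probe set 1434148_at was high in light zone replicate 2, at 1025 against 832.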

How the results depend on the processing

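Over 20 alternatives of the gene fit, not counting the 1.5-fold call rule, Tcf3, Id3, Lmo2 and Lyl1 kept direction and call in all. Id2 kept both in all 19 that gave it a value (none with the filter at the 75th percentile). Under the 1.5-fold rule Id3 (1.14-fold), Lyl1 (1.36-fold) and Ldb1 (1.25-fold) were not called. Ldb1 missed the threshold in the exact permutation (-0.33, p = 0.057, where 0.029 is the smallest possible). Tcf4 passed with the 75th percentile filter (0.17, limma adjusted p = 0.034), a pseudocount of 16 (0.17, limma adjusted p = 0.040), trend and robust variance (0.17, limma adjusted p = 0.022), the replicate block (0.17, limma adjusted p = 0.048) and the exact permutation (0.17, p = 0.029), and reversed with averaged probe sets (-0.023). It lay between 0.12 and 0.20 with 1 array left out. Tcf12 passed with its most variable probe set (-0.52, limma adjusted p = 0.0010). So 2 of the 9 genes were higher in the dark zone with the 75th percentile filter, the pseudocount, trend and robust variance and the replicate block (1 to 2 with 1 array left out), and 3 were higher in the light zone with that filter, which Id2 and Ldb1 miss. Tcf12 probe set 1446294_at, not called, changed sign with arrays centred on their medians (-0.015). Leaving out 1 array gave it -0.017 to 0.05, Id1 -0.043 to 0.11 and the dim Tcf4 probe set 1416725_at -0.072 to 0.042. A required change of 1.5-fold left 1060 genes (407 higher in the dark zone, 653 in the light zone) and 3 of the 9 genes, 2 of them higher in the light zone.

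For the lists, that rule left 1 dark and 0 light calls among LMO2 relatives, 0 dark calls among coactivators, 1 dark and 0 light among E protein targets, 1 light among other helix-loop-helix genes and 3 light among ID inputs. Without a filter, or at the 25th percentile, E protein targets had 4 light calls, coactivators 1 dark call and other helix-loop-helix genes 1 dark call. At the 75th percentile LMO2 relatives and other helix-loop-helix genes had 0 light calls and ID inputs 2 dark calls. ID inputs had 3 dark calls with averaged probe sets, 4 with the most variable probe set, 2 after quantile normalization again and 1 to 2 with 1 array left out. LMO2 relatives had 2 light calls with the most variable probe set. Coactivators had 1 dark call with the most variable probe set, quantile normalization again, centred arrays and the replicate block, and 1 to 2 dark and 1 to 2 light calls with 1 array left out. The causes were not tested beyond the genes tested under each filter.

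The labels number the replicates of both zones 1 to 4. Deviations from the zone means correlated at 0.06 to 0.24 between arrays of the same number, above 0.1 in 3 of 4 pairs. Since the labels give no shared animal or batch and 1 pair was below 0.1, the numbers were not taken as a pairing, although 7 of 8 arrays correlated best with their own number, a hint from the data and not the design. With the replicate block 7 of the 9 genes were called, and in the fit over probe sets Id3 and Tcf4 1416724_x_at missed the threshold (limma adjusted p = 0.057 and 0.051), as did Crebbp in the gene fit (0.067). No scaling moved the median of all genes by over 0.1.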
